A study of Mus musculus with 6 samples.

Results

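Axon guidance genes of the semaphorin, Slit, netrin and ephrin families, with their receptors, were followed in sorted cells of mouse mammary tumours. The set held 46 genes, 26 ligands and 20 receptors, listed by gene family with earlier results of these data known. A gene was measured by the probe set that names it alone, and where several did, by the brightest of them on average. Of the 46 genes, 45 had such a probe set and 44 passed the filter on dim values, among 15027 genes tested. Robo2 lay below the filter, and Ephb2 was not analysed here.

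All cells came from breast tumours of MMTV-Wnt-1 mice, which carry a Wnt1 transgene driven in the mammary gland by a mouse mammary tumour virus promoter, so both groups carry the transgene. The tumours of 3 mice, numbered TG1 to TG3, were each divided by fluorescence-activated sorting. The population called tumorigenic was gated as CD24+, Thy+ and CD45-. The population called nontumorigenic is described as not meeting that gate, and the wording does not settle whether its CD45- applies to it. Each population of each mouse was hybridised to 1 array, which gave 3 arrays against 3, and no age of the mice was used here. The study's title names cancer stem cells. The question here is which guidance genes differ between the cells called tumorigenic and the remaining cells of the same tumours.

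Expression is given on the log2 scale for each probe set, so a difference of 1 is a doubling, and array medians lay between 4.36 and 4.40. Genes of the sort gate did not all follow the labels. Ptprc, which encodes CD45, read 10.21, 7.76 and 3.82 in the tumorigenic-labelled arrays of mice 1, 2 and 3 and at most 3.59 in the others. Cd24a differed by -0.55 (limma adjusted p = 0.635) and Thy1 by 0.24 (limma adjusted p = 0.898). The 18S rRNA control probe set read 7.15 ± 0.75 under the tumorigenic label and 8.72 ± 0.23 under the other (SD, n = 3 each). The 5′ control probe set of Gapdh read 5.54 on the tumorigenic-labelled array of mouse 2 and 7.78 to 9.54 on the others. Its 3′ control probe set read 12.13 on that array and 11.53 to 12.07 on the others. The RNA quality of that array was not tested, which limits differences that rest on mouse 2. Directions below are therefore directions between the library labelled tumorigenic and the library labelled nontumorigenic. The groups are called the tumorigenic label and the nontumorigenic label.

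Guidance cues are secreted or membrane-bound proteins that steer cells and growing axons by attraction or repulsion. Semaphorins act through plexins, often with neuropilins as co-receptors, Slits through Robo receptors, netrins through Dcc, neogenin and Unc5 receptors, and ephrins through Eph receptor kinases on neighbouring cells. Outside the nervous system the same families pattern blood vessels, leukocyte traffic and epithelia, and in the mammary gland netrin with neogenin and Slit with Robo are known for holding the layers of the duct together.

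No guidance gene passed the adjusted threshold of 0.05, and no gene of the array did (limma, 0 of 44 members and 0 of 15027 genes, 0%). At an unadjusted p below 0.05 there were 6 members, against 8.5% of all genes, of which 5 were higher and 1 was lower under the tumorigenic label. Over all genes these shares were 5.23% and 3.27%, against 11.4% and 2.27% of the members. The 5 higher members were the semaphorins Sema6b and Sema4f, the plexins Plxnd1 and Plxna2 and the ephrin Efnb2, and the lower one was the receptor Epha7. The same 5 higher members were the ones whose 3 values under the tumorigenic label all lay above the 3 under the other label. This order describes the same values as the p and is not a further test. Sema4f passed the filter on dim values, at 2.98, only through its tumorigenic-labelled values, with a mean of 2.83 under the other label. Over all genes 6.9% had groups apart as higher under the tumorigenic label and 5.59% as lower, where the members had 0. In either direction groups were apart in 11.4% of the members and 12.5% of all genes, so members were not apart more often. Of the 44 members 31 had a positive difference, against 50.7% of all genes. The median log2 difference was 0.27 over the members, 0.31 over the 26 ligands and 0.24 over the 18 receptors tested, and 0.0051 over all genes. The difference between ligands and receptors was not tested. Leaving out single arrays moved the ligand median between 0.11 and 0.40 and the receptor median between 0.18 and 0.35, and without the nontumorigenic-labelled array of mouse 3 they were 0.11 and 0.35.

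The plot of log2 differences by class shows that most intervals cross 0. The count of members with an unadjusted p below 0.05 depended on single arrays. Without the tumorigenic-labelled array of mouse 3 it was 10 higher and 4 lower, where all genes gave 9.04% and 6.32%. Without the nontumorigenic-labelled array of mouse 2 or of mouse 3 it was 3 higher. All genes gave 4.65% higher and 3.54% lower in the former fit and 4.25% and 2.78% in the latter. Without the tumorigenic-labelled array of mouse 1 the members gave 4 higher and 0 lower (all genes, 3.97% and 2.1%), and without that of mouse 2 they gave 4 and 1 (3.05% and 2.7%). Without the nontumorigenic-labelled array of mouse 1 they gave 4 and 0 (3.77% and 2.63%), and the lower count was also 0 without that of mouse 2. With the mouse as a block 7 members were higher and 1 was lower, Sema7a and Plxnc1 being added (all genes, 5.77% and 3.78%). Sema6b and Plxnd1 had an unadjusted p below 0.05 in each of the 6 fits that leave out an array. Each has only 1 probe set, so neither could be compared with another. Plxna2 did in 3, Sema4f and Efnb2 in 2 each and Epha7 in 1.

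**Figure D1:**
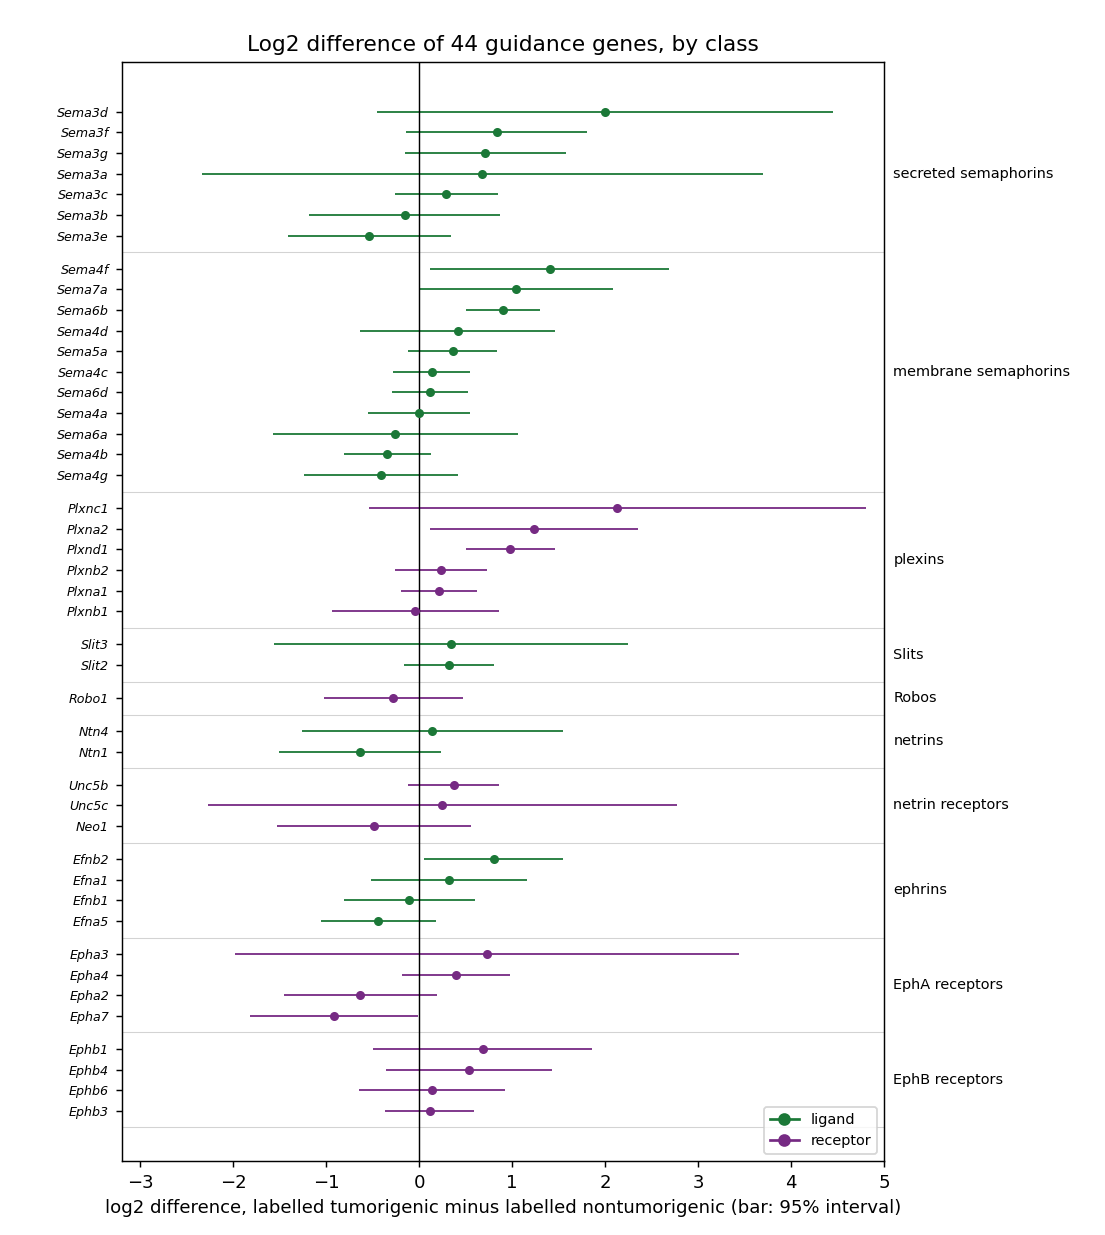
Log2 difference of each of the 44 guidance genes tested (horizontal axis, tumorigenic label minus nontumorigenic label, with the 95% interval from limma over 3 arrays against 3), grouped by class, with ligands in green and receptors in purple. The intervals of Sema4f, Sema6b, Plxna2, Plxnd1 and Efnb2 lie above 0 and that of Epha7 below, without adjustment for multiple tests.

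Secreted semaphorins of class 3 bind neuropilins and signal through plexins. All 7 were tested and 0 had an unadjusted p below 0.05, with 5 positive and 2 negative differences and a median of 0.68. Sema3f, known as a repellent that acts through Nrp2, read 5.95, 7.21 and 6.23 under the tumorigenic label in mice 1, 2 and 3 and 5.68, 5.15 and 6.06 under the other, with a log2 difference of 0.83 (SE 0.40; adjusted p = 0.632 by limma). Mouse 2 stood far above the other group and mouse 3 just above it, while mouse 1 lay within it. Sema3g, a class 3 semaphorin expressed by arteries, read 6.19, 6.73 and 5.51 against 5.13, 5.36 and 5.81. Its log2 difference was 0.71 (SE 0.36; limma adjusted p = 0.644), with a negative value in mouse 3.

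Sema3d, a further class 3 member, had the widest mean difference of the ligands. It read 5.75, 7.63 and 4.68 under the tumorigenic label and 2.25, 4.82 and 4.995 under the other, a log2 difference of 1.999 with an interval from -0.45 to 4.45. The value of 2.25 lies below the filter on dim probe sets at 2.98, so the size is rough, and the groups overlapped. Sema3a, the founding repellent of the family, differed between mice more than between labels: 7.07, 8.66 and 4.34 against 6.52, 7.17 and 4.34. Sema3c had a difference of 0.29 and Sema3b of -0.16. Sema3e, a ligand that binds plexin D1 without a neuropilin, read 3.19, 4.26 and 3.87 against 4.27, 3.87 and 4.80, with a log2 difference of -0.54 (SE 0.36; adjusted p = 0.716 by limma).

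Membrane-bound semaphorins of classes 4 to 7 act at cell contacts. Of the 11 members, 2 had an unadjusted p below 0.05 and both were higher (all genes, 5.23% higher and 3.27% lower). Of the differences 8 were positive and 3 negative, and the median was 0.13. Sema6b, a transmembrane semaphorin that binds class A plexins, had the smallest p of all members. It read 6.58, 6.85 and 6.53 under the tumorigenic label and 5.85, 5.74 and 5.65 under the other. Every tumorigenic-labelled value was above every other value, and the spread within each label was small beside the gap. The difference was 1.87-fold, or 0.90 on the log2 scale (SE 0.17; limma adjusted p = 0.254), and it was positive in 3 of 3 mice. With the mouse as a block the unadjusted p was 0.0068.

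Sema4f, a class 4 transmembrane semaphorin, read 5.38, 4.11 and 3.22 under the tumorigenic label and 2.99, 2.75 and 2.76 under the other. The groups were apart, but all 3 nontumorigenic-labelled values lay near or below the filter, so the 2.65-fold difference is rough (limma adjusted p = 0.554). The gene passed the filter only through its values under the tumorigenic label. The order of the 3 mice was that of Ptprc, as it also was for Epha3, Plxna1 and Plxnb2. The other Sema4f probe set gave a log2 difference of only 0.063. Sema7a, a semaphorin anchored in the membrane by a lipid and known from the immune system, read 8.58, 9.25 and 7.59 against 7.16, 7.66 and 7.47. Its groups overlapped through mouse 3, and its log2 difference was 1.04 (SE 0.43; limma adjusted p = 0.587). With the mouse as a block the unadjusted p of Sema7a was 0.040.

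The other membrane semaphorins differed less. Sema5a, a semaphorin with thrombospondin repeats, had a log2 difference of 0.36, positive in 3 of 3 mice. Sema4d, the leukocyte semaphorin CD100, had 0.41 and read highest, at 9.56, in the tumorigenic-labelled array of mouse 1. Sema4b, Sema4g and Sema6a had -0.34, -0.41 and -0.25. For Sema4a, Sema4c and Sema6d the differences were 0.0017, 0.13 and 0.11, and that of Sema4a was negative after a renewed quantile normalisation or centring on the array median. Sema6d had 3 further probe sets, which gave 0.68, 1.74 and 0.21.

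Plexins are the main semaphorin receptors, single-pass proteins whose inner domain acts on small GTPases. Of the 6 tested, 2 had an unadjusted p below 0.05 and both were higher (all genes, 5.23% higher and 3.27% lower). Of the differences 5 were positive, and the median was 0.61, or 0.73, 0.60 and 0.64 in mice 1, 2 and 3. Plxnd1, the vascular plexin that receives Sema3e, read 6.58, 6.66 and 6.23 under the tumorigenic label and 5.71, 5.32 and 5.50 under the other. No value of the groups overlapped. The difference was 1.97-fold, or 0.98 on the log2 scale (SE 0.20; limma adjusted p = 0.299), with 0.87, 1.34 and 0.73 in mice 1, 2 and 3.

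Plxna2, a receptor for class 6 semaphorins and, with neuropilins, for class 3, read 6.54, 6.998 and 6.82 against 4.51, 6.16 and 5.98. The groups were apart, with a wide gap in mouse 1 because its nontumorigenic-labelled value was low. The log2 difference was 1.24 (SE 0.46; limma adjusted p = 0.546), and its 3 probe sets above the filter gave 1.24, 1.11 and 1.07. Plxnc1, the receptor of Sema7a and a plexin of myeloid cells, read 8.24, 5.91 and 3.71 against 4.12, 4.20 and 3.16. Its log2 difference of 2.13 was the widest among the members but had an interval from -0.54 to 4.80 (limma adjusted p = 0.653). Mouse 1 carried most of it, and mouse 3 lay within the other group. The other probe sets of Plxnc1 above the filter gave 0.99, 0.94 and -0.40. Plxna1 had a difference of 0.21, Plxnb2 of 0.23 and Plxnb1, the Sema4d receptor, of -0.039.

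**Figure D2:**
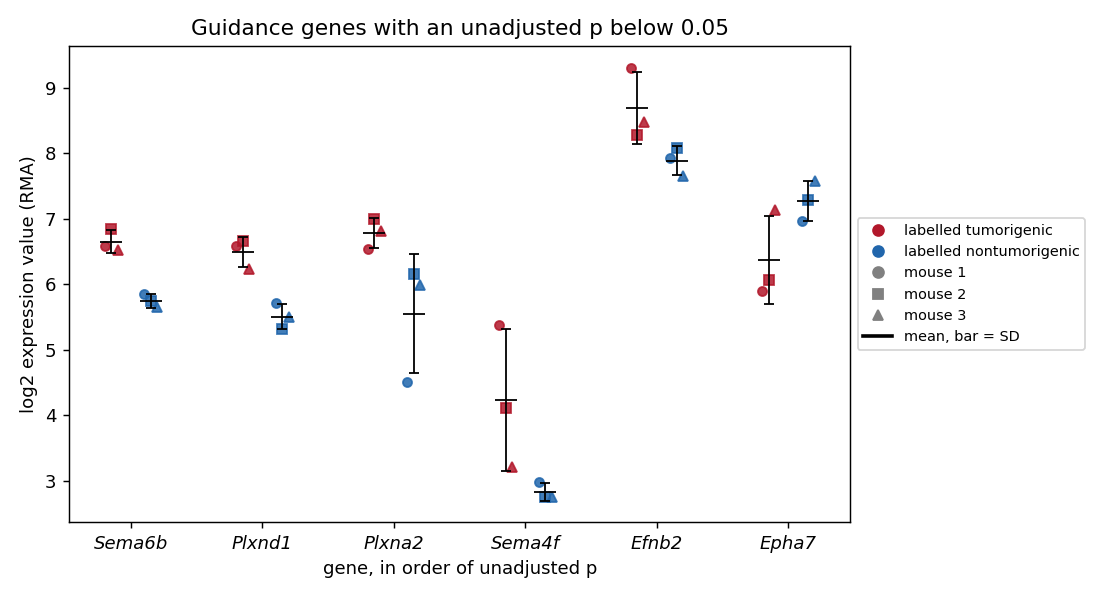
Log2 expression values (vertical axis) of the 6 guidance genes with an unadjusted p below 0.05 on each array, by label (red, tumorigenic; blue, nontumorigenic) and mouse (symbol), with the mean and SD of 3 arrays in black. Sema6b and Plxnd1 show 2 tight clusters that do not overlap, Sema4f and Plxna2 owe much of their difference to mouse 1, and Epha7 overlaps. Heights are not comparable between genes.

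The stretches of DNA before the starts of the members with groups apart are shown as a reference for these genes, since they lay apart in the same direction. Those with a single start in the RefSeq promoter table (GRCm38.p6) are printed, which leaves out Sema6b. Each is the 250 bases before the start, 5′ to 3′ on the gene's strand: Plxnd1 at chr6:115995006-115995255 (minus strand), Plxna2 at chr1:194619579-194619828 (plus strand), Efnb2 at chr8:8661243-8661492 (minus strand) and Sema4f at chr6:82939770-82940019 (minus strand). Capitals mark the GC box, GGGCGG on either strand.
Plxnd1: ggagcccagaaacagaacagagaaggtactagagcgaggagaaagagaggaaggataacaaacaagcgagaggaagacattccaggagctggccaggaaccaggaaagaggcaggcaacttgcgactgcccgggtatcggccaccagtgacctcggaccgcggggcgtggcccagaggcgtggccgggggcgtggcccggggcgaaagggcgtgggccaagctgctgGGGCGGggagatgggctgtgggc
Plxna2: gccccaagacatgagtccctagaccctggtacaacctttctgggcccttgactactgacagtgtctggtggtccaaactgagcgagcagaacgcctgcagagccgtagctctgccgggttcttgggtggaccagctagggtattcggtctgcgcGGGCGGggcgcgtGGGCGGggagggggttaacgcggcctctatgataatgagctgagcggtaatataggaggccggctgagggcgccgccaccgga
Efnb2: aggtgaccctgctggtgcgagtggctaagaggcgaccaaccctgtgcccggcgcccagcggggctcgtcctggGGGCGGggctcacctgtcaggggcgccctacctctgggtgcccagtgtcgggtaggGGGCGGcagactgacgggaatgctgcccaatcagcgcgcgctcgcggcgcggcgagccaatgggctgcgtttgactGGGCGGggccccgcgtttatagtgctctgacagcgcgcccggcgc
Sema4f: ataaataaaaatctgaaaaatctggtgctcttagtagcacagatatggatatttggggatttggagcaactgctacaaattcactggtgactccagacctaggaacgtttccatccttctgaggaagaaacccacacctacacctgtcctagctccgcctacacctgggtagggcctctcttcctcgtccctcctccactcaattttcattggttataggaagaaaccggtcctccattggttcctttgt
The GC box occurred 1 time before Plxnd1, 2 times before Plxna2 and 3 times before Efnb2, and it was not found in the Sema4f window. The CCAAT box (CCAAT, either strand) occurred 2 times each before Efnb2 and Sema4f. The TATA box (TATAAA, either strand) occurred 1 time, before Efnb2. These letters are common: the GC box was in 32.7% of the 32851 windows of the table, the CCAAT box in 33.8% and the TATA box in 12.4%. Over the 55 windows of the 41 members in the table the shares were 70.9%, 27.3% and 3.64%. Member windows were richer in G and C, with a median of 64.4% against 52.4%, and windows of 1 gene can overlap. The 3 motifs are not nested, and a match is not evidence of binding.

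Slits are secreted repellents cut into fragments that bind Robo receptors, and 2 Slits and 1 Robo were tested, none with an unadjusted p below 0.05. Slit2, a ligand of Robo1, read 11.22, 11.41 and 10.89 under the tumorigenic label and 10.70, 11.03 and 10.82 under the other. The groups overlapped, with a log2 difference of 0.33 (SE 0.20; adjusted p = 0.696 by limma) that was positive in 3 of 3 mice. The other Slit2 probe sets gave -0.12 and 0.25. Slit3, a related ligand, read 7.73, 8.97 and 5.76 against 7.05, 7.51 and 6.87, so the tumorigenic-labelled arrays held both the highest and the lowest value. Robo1, a Slit receptor, read 9.84, 9.04 and 10.18 against 10.06, 9.90 and 9.94, with a log2 difference of -0.28 (SE 0.31; adjusted p = 0.827 by limma). A further Robo1 probe set above the filter gave 0.20. Robo2 read between 2.02 and 2.36 on 5 arrays and 4.55 on the nontumorigenic-labelled array of mouse 2, below the filter on average, and was not tested.

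Netrins are laminin-related ligands, and none of the 2 netrins and 3 receptors had an unadjusted p below 0.05. Ntn1, the netrin that attracts or repels depending on its receptor, read 2.93, 4.25 and 3.61 against 4.54, 4.10 and 4.06, with a log2 difference of -0.63 (SE 0.36; adjusted p = 0.679 by limma). Its value of 2.93 lay below the filter at 2.98. Ntn4, a netrin of basement membranes, read 7.85, 8.27 and 6.34 against 7.01, 8.09 and 6.94, a difference of 0.14.

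Among the netrin receptors, Unc5b, which is known from vessels, read 5.26, 5.51 and 5.03 against 4.67, 5.07 and 4.94. Its log2 difference was 0.37 (SE 0.20; limma adjusted p = 0.663), with overlap and a positive sign in 3 of 3 mice. Neo1, which encodes neogenin, read 7.55, 7.54 and 8.70 against 7.80, 8.52 and 8.92. It was 1 of 2 members that were lower in 3 of 3 mice, with a log2 difference of -0.48 (SE 0.43; adjusted p = 0.784 by limma). Its 3 other probe sets above the filter gave -0.90, -0.59 and -1.56, and those with -0.90 and -1.56 had groups apart as lower. The mean of its probe sets gave -0.88. Unc5c, a repulsive netrin receptor, read 6.85, 7.35 and 5.28 against 4.22, 6.46 and 8.05, which is a difference of opposite sign in mouse 3.

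Ephrins are membrane-bound ligands, those of class A held by a lipid anchor and those of class B by a transmembrane segment that can signal back into the cell. Of the 4 tested, 1 had an unadjusted p below 0.05 (all genes, 8.5%). Efnb2, the ephrin of arterial endothelium, read 9.31, 8.28 and 8.48 under the tumorigenic label and 7.93, 8.08 and 7.65 under the other. The groups were apart, by a small gap in mouse 2. The difference was 1.74-fold, or 0.80 on the log2 scale (SE 0.31; limma adjusted p = 0.558). Its 3 other probe sets gave 0.25, -0.54 and -0.27, and the mean of its probe sets gave 0.060, so its direction rests on the brightest probe set. Efna5, a class A ephrin known from topographic nerve maps, read 6.65, 7.03 and 7.55 against 7.46, 7.60 and 7.50, with a log2 difference of -0.44 (SE 0.25; adjusted p = 0.681 by limma). Efna1, an ephrin known for its response to inflammatory cytokines, had 0.32, and Efnb1, a further class B ephrin, had -0.11.

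Eph receptors are receptor tyrosine kinases, and 8 were tested, with 1 at an unadjusted p below 0.05 (all genes, 8.5%). Epha7, a receptor for class A ephrins, read 5.90, 6.06 and 7.14 under the tumorigenic label and 6.97, 7.29 and 7.58 under the other. The groups overlapped in that mouse 3 under the tumorigenic label exceeded mouse 1 under the other, yet each mouse had a negative difference. The log2 difference was -0.91 (SE 0.37; limma adjusted p = 0.585), and its 3 other probe sets lay below the filter. Epha2, the receptor of Efna1 in epithelia, read 5.40, 5.25 and 5.48 against 6.52, 6.23 and 5.27, with a log2 difference of -0.63 (SE 0.34; adjusted p = 0.661 by limma). Mice 1 and 2 differed and mouse 3 did not follow.

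Epha3, an Eph receptor often found in mesenchymal cells, read 9.19, 8.45 and 5.18 against 7.65, 5.71 and 7.27, so its mean difference of 0.73 hides a difference of -2.10 in mouse 3. Epha4, a receptor that binds ephrins of both classes, had 0.40 with a positive sign in 3 of 3 mice. All 4 EphB receptors tested had positive differences and none had an unadjusted p below 0.05. Ephb4, the receptor of Efnb2 in veins, read 6.23, 6.06 and 7.35 against 5.89, 6.25 and 5.89, with a log2 difference of 0.54 (SE 0.37; adjusted p = 0.721 by limma) that came from mouse 3. Ephb1, a receptor of class B ephrins, read 5.54, 6.60 and 5.85 against 6.26, 4.97 and 4.71, with a log2 difference of 0.68 (SE 0.48; adjusted p = 0.732 by limma). Ephb3 had a difference of 0.11, and Ephb6, whose kinase domain is inactive, had 0.14.

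Ligands and receptors known to bind each other did not always point the same way, and none of these differences passed the adjusted test. Sema6b and its class of receptor, Plxna2, had log2 differences of 0.90 and 1.24, and Sema7a with Plxnc1 had 1.04 and 2.13. Efnb2 and Ephb4 had 0.80 and 0.54. Plxnd1 had 0.98 while its ligand Sema3e had -0.54. Slit2 and Robo1 had 0.33 and -0.28, Sema4d and Plxnb1 had 0.41 and -0.039, and Ntn1 had -0.63 beside 0.37 for Unc5b, 0.25 for Unc5c and -0.48 for Neo1. Other probe sets above the filter gave -0.12 and 0.25 for Slit2, 0.20 for Robo1 and 0.027 for Plxnb1. In the pairs with 2 positive differences they gave 0.25, -0.54 and -0.27 for Efnb2, 0.99, 0.94 and -0.40 for Plxnc1, and 0.17 for Sema7a. Those of Plxna2 gave 1.11 and 1.07, and Sema6b, Plxnd1 and Ephb4 had 1 probe set each. The direction thus depends on the probe set for Slit2, Robo1, Plxnb1, Efnb2 and Plxnc1. Of the 32 members with over 1 probe set, dim ones included, 17 had probe sets that differ in sign. The pairs are set side by side as values and the difference within a pair was not tested.

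Mouse 3 differed from mice 1 and 2 in many members. In 8 members the difference was positive in mice 1 and 2 and negative in mouse 3 (18.2%, against 12.8% of all genes): Sema3a, Sema3d, Sema3g, Plxnb2, Slit3, Ntn4, Unc5c and Epha3. For Epha3 the values were 1.54, 2.74 and -2.10 and for Slit3 0.68, 1.46 and -1.11. In 9 members the signs were reversed (20.5%, against 12.8% of all genes): Sema3b, Sema4g, Sema6a, Sema6d, Plxnb1, Robo1, Efna5, Efnb1 and Epha2. Sema6a, a transmembrane semaphorin of class 6, had -0.57, -1.31 and 1.12. A positive sign in 3 of 3 mice was seen in 13 members (29.5%, against 15.9% of all genes) and a negative one in 2 (4.55%, against 14.3%).

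**Figure D3:**
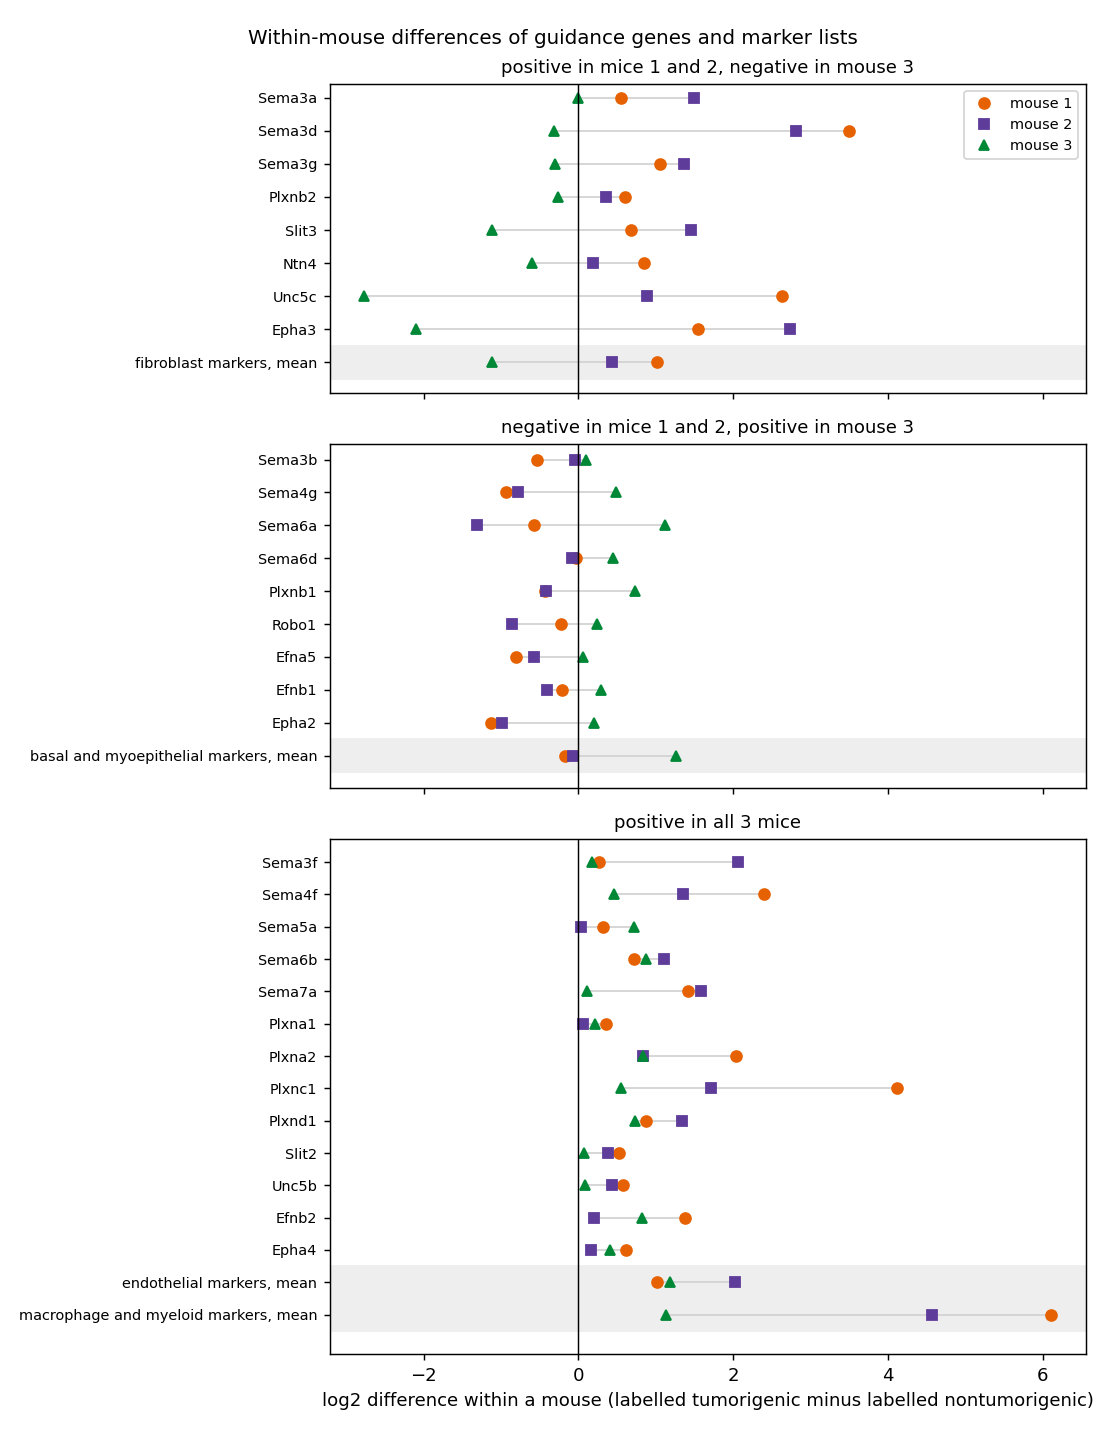
Log2 difference within each mouse (horizontal axis, with the mouse given by symbol and colour) for guidance genes grouped by their signs in the 3 mice. Means of marker lists are on grey bands. The lists are fibroblast in the top panel, basal and myoepithelial in the middle, and endothelial with macrophage and myeloid at the bottom. The grouping is by the plotted values themselves, and each list was placed in a panel whose signs it shares. The other marker lists are not drawn, though 2 of them share the signs of a panel. In mice 1, 2 and 3 the T and NK cell list had 3.57, 0.28 and -0.38, as in the top panel. The adipocyte list had 1.15, 3.73 and 1.38, as at the bottom. Epha3, Unc5c and Slit3 lie far below 0 in mouse 3, as do the fibroblast markers with -1.12, while Sema6b and Plxnd1 lie close together in the 3 mice. For Unc5c the nontumorigenic-labelled array of mouse 3 was high, at 8.05, and the tumorigenic-labelled one, at 5.28, lay within the other group.

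Some marker lists of cell types had the sign patterns drawn above, and others did not. The mean of the pericyte markers differed by 0.49, -0.24 and -0.21 in mice 1, 2 and 3. That of the luminal markers differed by -2.72, -1.08 and -1.29. In bulk samples, fewer cells of a type and less RNA per cell cannot be told apart. The mean level of 13 measured endothelial markers lay between 7.28 and 7.98 under the tumorigenic label and between 5.96 and 6.57 under the other, and 13 of 13 had a positive difference. The endothelial marker Cdh5 was dim under the nontumorigenic label, with values from 3.60 to 4.22. The 13 measured macrophage and myeloid markers had means of 10.41, 8.84 and 5.70 in mice 1, 2 and 3 under the tumorigenic label and 4.27 to 4.56 under the other, with 12 of 13 positive. Plxnc1, Sema4f and Ptprc have the same order of mice, as do Epha3, Plxna1 and Plxnb2. The 10 measured T and NK cell markers lay between 3.43 and 7.47 and between 3.81 and 4.23, with 9 of 10 positive. Their differences in mice 1, 2 and 3 were 3.57, 0.28 and -0.38, so mouse 1 carried most of the mean difference.

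Fibroblast markers, 8 measured with 6 positive, had means of 11.01, 10.89 and 9.21 against 9.99, 10.45 and 10.32. They were low in the array in which Epha3, Slit3, Sema3a and Ntn4 were lowest. Basal and myoepithelial markers, 11 measured with 9 positive, had means of 9.09, 9.27 and 10.14 against 9.27, 9.33 and 8.88, high in the array in which Sema6a and Ephb4 were highest. Sema3b, Sema3c, Sema4a, Sema4c, Sema4g, Sema6d, Robo1, Epha4 and Ephb6 were also highest in that array. Luminal markers lay between 6.34 and 7.99 under the tumorigenic label and between 9.06 and 9.28 under the other, with 0 of 11 positive. The 6 pericyte markers (9.25 to 10.53 against 9.46 to 10.22, 3 positive) overlapped, and the 6 measured adipocyte markers lay between 5.43 and 8.27 against 4.28 to 4.54, with 6 positive. The part of these cell types in the guidance results was not tested. On the tumorigenic-labelled array of mouse 3, Ptprc at 3.82 was the lowest of its label but above all 3 nontumorigenic-labelled arrays, as were 12 of 13 endothelial and 10 of 13 macrophage and myeloid markers. On that array 20 of 44 members lay above every nontumorigenic-labelled array and 5 below (25.4% and 22% of all genes).

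**Figure D4:**
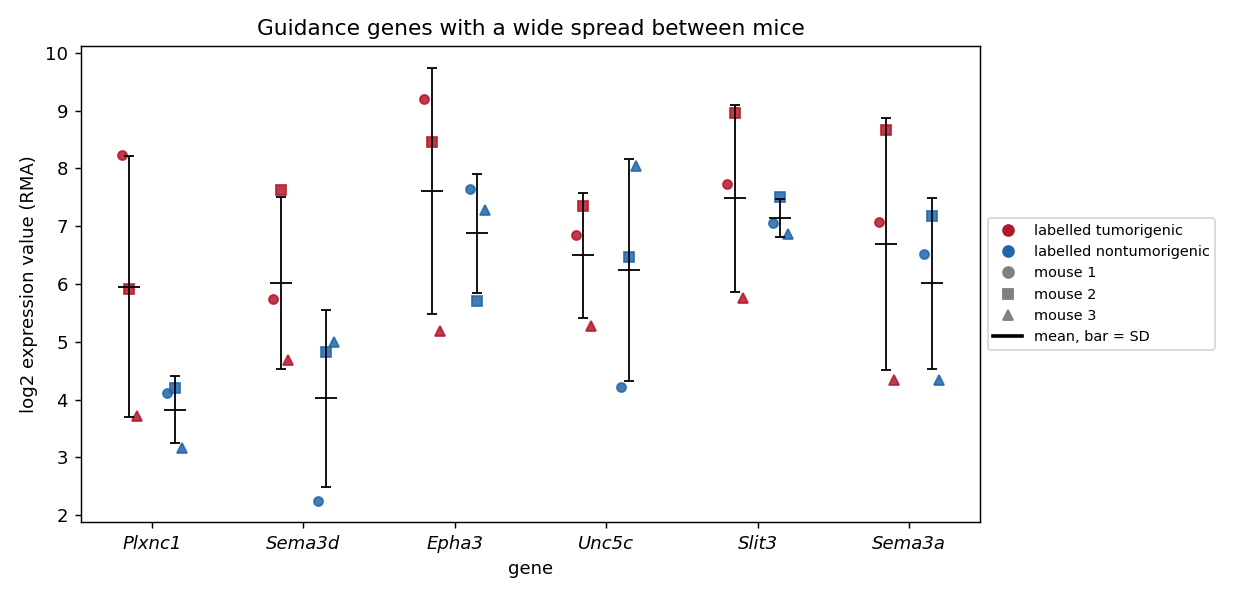
Log2 expression values (vertical axis) of 6 guidance genes chosen for their wide spread between mice, on each array by label (red, tumorigenic; blue, nontumorigenic) and mouse (symbol), with the mean and SD of 3 arrays in black. In Epha3, Slit3 and Unc5c the tumorigenic-labelled array of mouse 3 (triangle) is the lowest of its label, and in Plxnc1 the array of mouse 1 stands highest at 8.24.

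Other genes of the same pathways were counted from lists chosen by function. Of 29 further ligands and receptors 24 were tested, 14 with a positive difference and a median of 0.014, and 2 had an unadjusted p below 0.05, both higher (all genes, 5.23% higher and 3.27% lower). Groups were apart in 3, all higher (all genes, 6.9% higher and 5.59% lower). These were Robo4, Rgmb and the class B ephrin Efnb3, whose 0.59 came mostly from mouse 3. Robo4, the Robo of endothelial cells, which is also on the endothelial marker list, read 8.23, 8.80 and 7.85 against 6.55, 5.83 and 6.17, with a log2 difference of 2.11 (SE 0.31; adjusted p = 0.243 by limma). Rgmb, a neogenin ligand, had 0.67, positive in 3 of its 6 probe sets. The neuropilins, named here after their values were seen, had 0.80 for Nrp1 and 0.61 for Nrp2 (limma adjusted p = 0.592 and 0.608), positive in 3 of 3 mice each.

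Inside the cell, guidance receptors act through small GTPases, their regulators and the cytoskeleton. Of 30 such effectors tested, 19 had a positive difference, the median was 0.20, and 3 had an unadjusted p below 0.05, all higher, against 5.23% higher and 3.27% lower over all genes. Rras, a small GTPase that plexins act on, read 8.74, 9.14 and 8.45 against 7.98, 8.37 and 7.78, which is 0.73 higher (SE 0.25; adjusted p = 0.532 by limma). Srgap2, a protein that binds Robo receptors, had 0.71, and Ablim1, an actin-binding protein, had 0.42. Groups were apart in 6 effectors as higher and 1 as lower, against 6.9% and 5.59% of all genes. Beside these 3, and named after their values were seen, Rnd1, Arhgef11 and Dpysl3 were apart as higher with 1.72, 0.42 and 0.20, and Ngef was apart as lower with -0.50. Arhgef11 was positive in 1 of its 2 probe sets and the other gave -1.54. Those of Dpysl3 ran from -0.14 to 2.04, so both directions depend on the probe set. The difference of Rnd1, a small GTPase that binds plexins, came mostly from mouse 2, with 0.34, 4.64 and 0.17 in mice 1, 2 and 3.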

How the data were processed

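The deposited table holds log2 expression values per probe set, 1 array per population and mouse, which the authors computed by RMA, a robust averaging over probes, as the submitters' processing notes name it. Its version is not given in the sources used here, and the log2 scale was read from the values. RMA sets arrays to a common distribution, so a shift shared by most transcripts would be removed. Of 45101 probe sets, 64 controls were left out, 34945 had 1 gene symbol in the platform annotation, 932 several and 9160 none. Of those with 1 symbol, 34741 matched RefSeq genes by Entrez identifier, with 0 symbols changed. The dimmest 25% of probe sets (mean below 2.98) were left out, and each gene took its brightest probe set.

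The labels were compared by limma (version 3.58.1, R 4.3.3) over all 15027 genes and 6 arrays without covariates, two-sided, with Benjamini-Hochberg adjustment, and the script was tested on simulated data. An exact permutation test of 3 against 3 cannot go below 0.1 and was not used. Replicates were separate mice. Both populations of a number come from 1 animal, so the numbers pair the arrays: deviations of same-mouse arrays correlated across genes at 0.079, 0.136 and 0.086. Members, lists and tests were chosen with earlier results of these data known, so no p is adjusted over the members alone. Values on every array are given for members with an unadjusted p below 0.05 or groups apart and for the 2 with the smallest p in each class (1 in classes of 2). Sema7a, Sema3d, Sema3a, Sema3e, Plxnc1, Slit3, Ntn4, Unc5c and Epha3 were added after their values were seen. Alternatives covered the mouse as a block, the filter, normalisation, the variance prior, the choice of probe set and the arrays used. Promoter windows are from RefSeq; 41 of 46 members matched by symbol.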

Additional observations from a re-analysis of the deposited data

How the results depend on the processing

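No member passed the adjusted threshold in any of the 18 alternatives by limma, and the lowest adjusted p was 0.110. Of the 44 members, 24 kept their sign throughout, among them the 6 with an unadjusted p below 0.05. Medians over members, ligands and receptors were positive in every alternative. With the mouse as a block, the pairing gave 7 higher and 1 lower members with an unadjusted p below 0.05 and 0 adjusted calls over all genes, adding Sema7a and Plxnc1, and it changed no other call among the members.

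Adjusted calls over all genes were 1 without the filter and 1 with probe sets averaged by gene. The latter gave medians of 0.17 over members and 0.16 over ligands, 2 lower members with an unadjusted p below 0.05 and 1 with groups apart as lower (all genes, 3.43% and 6.27%). The unmoderated model gave 2 higher and 0 lower members (all genes, 3.54% and 2.75%), and the trended prior and the lack of a filter 0 lower (3.22% and 3%). Without mouse 1, 0 members had an unadjusted p as lower (all genes, 1.76%), groups were apart in 11 as higher and 2 as lower (17.2% and 12.4%), and the ligand median was 0.19. Without mouse 2 it was 3 higher members by p (2.87%), 13 and 2 apart (15.7% and 17.6%), and a ligand median of 0.21. Without mouse 3 it was 8 higher and 5 lower by p (7.67% and 4.88%), 18 and 9 apart (21.8% and 19.7%), and a ligand median of 0.16. With the tumorigenic-labelled array of mouse 3 alone, which assumes that it varies like the other label, 20 and 5 were apart (25.4% and 22%). Fewer arrays make groups lie apart more often by construction.

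Leaving out each array in turn gave 0 to 18 adjusted calls over all genes, the 18 without the tumorigenic-labelled array of mouse 3. It gave 3 to 10 higher and 0 to 4 lower members by unadjusted p (all genes, 3.05% to 9.04% and 2.1% to 6.32%) and 7 to 15 and 0 to 7 apart (9.4% to 16.8% and 7.86% to 14.9%). Medians were 0.18 to 0.36 over members, 0.11 to 0.40 over ligands and 0.18 to 0.35 over receptors. Differences that changed sign ranged from -0.45 to 0.27 for Sema3b, -0.17 to 0.18 for Sema4a, -0.88 to 0.096 for Sema6a, -0.30 to 0.28 for Plxnb1, -0.25 to 0.72 for Ntn4, -0.063 to 1.94 for Epha3, -0.31 to 1.86 for Sema3a, -0.40 to 1.20 for Slit3, -0.53 to 0.044 for Robo1, -0.76 to 1.15 for Unc5c, -0.25 to 0.16 for Efnb1, -0.15 to 0.48 for Ephb6 and -0.044 to 0.21 for Ephb3.

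Other sign changes numbered up to 15 of 44 members in a setting, those with the tumorigenic-labelled array of mouse 3 alone, and the cause was not tested. Sema4a was -0.037 after quantile normalisation and -0.016 after median centring, and the mean of probe sets gave 0.019 for Sema3b and 0.033 for Efnb1. Without mouse 1 the values were 0.032 for Sema3b, -0.075 for Sema4a, -0.019 for Sema4d, 0.16 for Plxnb1, -0.21 for Ntn4, -0.94 for Unc5c and -0.11 for Ephb3. Without mouse 2 they were 0.27 for Sema6a, 0.15 for Plxnb1, -0.22 for Slit3, 0.011 for Robo1, -0.067 for Unc5c, 0.042 for Efnb1 and -0.28 for Epha3. Without mouse 3 they were -0.084 for Sema4a, -0.055 for Sema6d and -0.15 for Ephb6. With the tumorigenic-labelled array of mouse 3 alone they were -1.67 for Sema3a, 0.42 for Sema3b, 0.35 for Sema4g, 0.99 for Sema6a, 0.49 for Plxnb1, -0.091 for Plxnb2, -0.11 for Plxnc1, -1.39 for Slit3, 0.21 for Robo1, -1.004 for Ntn4, -0.96 for Unc5c, 0.29 for Neo1, 0.037 for Efna5, 0.19 for Efnb1 and -1.70 for Epha3.

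Arrays have no depth; their number, 3 per label, limits the precision, and dim probe sets such as that of Sema4f limit the size of a difference.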
